A study of Mus musculus with 2 samples.

Results

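The kinesin genes were taken as every gene symbol in the deposited feature lists that begins with Kif followed by a digit. The rule found 40 genes, of 31053 features in the E18 library and 31054 in the P2 library. RNA had been counted cell by cell in 2 libraries of mouse brain, 1 per age, from cells sorted as viable. CD1 mice at embryonic day 18 gave the E18 library, from cortex together with the dorsal ventricular-subventricular zone (V-SVZ), the germinal layer along the lateral ventricles. Mice of the genotype Emx1Cre;R26Eyfp fl/fl at postnatal day 2 gave the P2 library, from the dorsolateral V-SVZ after the cortex was taken off. In these mice Cre driven from Emx1, a gene of the cortical primordium, switches on the reporter EYFP, so the label follows cells of cortical descent. The number of animals pooled per library is not known here. Age, mouse line, dissection and library cannot be told apart.

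Kinesins are motor proteins that hydrolyse ATP and, for the most part, walk along microtubules. One set of them builds and moves the mitotic spindle, drives chromosomes and completes cytokinesis, and is made while a cell divides. Another set carries vesicles, mitochondria and RNA along axons and dendrites and is abundant in neurons. A smaller set works in cilia, the microtubule-based projections that ependymal cells bear in tufts. The 40 genes were grouped accordingly into 11 mitotic, 15 transport and 6 ciliary kinesins and 8 other matches. The other matches include Kif16bos, an antisense RNA, and Kif1bp, which encodes a kinesin-binding protein and no motor.

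After filtering, 2475 E18 cells and 2298 P2 cells remained, with a median of 6566 and 12525 UMIs (unique molecular identifiers, each marking 1 captured RNA molecule) per cell, and the libraries shared 0 barcodes. The 40 genes made up 0.15% of the UMIs at E18 and 0.185% at P2. Of the 40, 25 had 50 or more UMIs at E18 and 34 at P2. Kif12 and Kif2b had 0 UMIs in either library and Kif28 had 0 at E18 and 2 at P2. Cells were clustered without the kinesin genes and named from fixed marker lists that held none of them, so no kinesin value entered the choice of the classes. The class of cycling cells held 101 E18 cells (median 9423 UMIs) and 274 P2 cells (median 26958 UMIs). The neuronal classes pooled (excitatory neurons, inhibitory neuroblasts, interneurons of the medial and caudal eminences and striatal projection neurons) held 1926 and 1487 cells. The glial classes outside the cycling class, pooled (stem cells, maturing astrocytes, oligodendrocyte precursors and ependymal cells), held 141 and 208. They are not free of cycling markers, as the P2 maturing astrocytes below show. The labels call the cells late embryonic cortical and early postnatal V-SVZ types, and the defining markers were there: Neurod6 stood at 1182 UMIs of the gene per 1000000 UMIs (CPM) in E18 neuronal cells, Gad2 at 426 CPM in P2 neuronal cells, Top2a at 632 and 1317 CPM in the cycling cells. These genes are on the lists that named the classes, so their levels describe the classes and do not test the names. The classes differed in make-up between the libraries. E18 cycling cells had 59.7 CPM of Eomes and 109 CPM of Dlx2, against 9.79 and 461 CPM at P2.

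A level below is the CPM of a class, its summed UMIs scaled by all its UMIs. Each interval in brackets is a 95% interval that covers counting error only, and PCR or animal-to-animal variation is not in it. With 1 library per group no test was possible and no p-value is given. A gene is called higher or lower where 2 classes differ by 1 or more on the log2 scale and the interval of the log2 ratio excludes 0, among genes with at least 10 UMIs over both. The counts are not per length of RNA, so levels are compared between classes and not between genes.

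The promoters of the mitotic kinesins are shown first because 7 of the 10 found hold the same short letters within 20 bases of the RefSeq start, a distance chosen after the matches were seen, against 2.22% of all windows. RefSeq windows on GRCm38.p6, from 250 bases before to 50 after a start, were matched by symbol for 32 of the 40 genes, among them 10 of the 11 mitotic ones. The letters TTTGAA, a form of the cell cycle genes homology region through which the DREAM complex holds G2/M genes silent outside the cycle, were searched on both strands. They stood in 9 of the 10 mitotic windows, against 17.9% of all 32851 windows. The exception was Kif18a. Among the transport kinesins they stood in 1 of 13 windows, at a second start of Kif1a. The CCAAT box, known to bind NF-Y, stood in 6 of the 10 mitotic windows and in 37.4% of all windows. A CCAAT box together with either TTTGAA or its variant with A in place of G was found in 6 of 10 against 10.7% of all windows. The 5 mitotic windows below, 120 bases before the start to 30 after it, show where the letters lie, and Kif5c is given as a neuronal transport kinesin without them. Capitals mark TTTGAA and CCAAT, or the same letters read from the opposite strand. Each sequence runs 5′ to 3′ on the strand of its gene.
Kif11: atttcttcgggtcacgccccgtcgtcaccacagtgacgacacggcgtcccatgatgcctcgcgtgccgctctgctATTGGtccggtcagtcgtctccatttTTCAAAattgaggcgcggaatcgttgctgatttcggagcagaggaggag
Kif22: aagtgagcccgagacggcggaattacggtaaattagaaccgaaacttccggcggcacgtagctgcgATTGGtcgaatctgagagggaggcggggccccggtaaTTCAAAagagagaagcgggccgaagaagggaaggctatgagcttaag
Kif18b: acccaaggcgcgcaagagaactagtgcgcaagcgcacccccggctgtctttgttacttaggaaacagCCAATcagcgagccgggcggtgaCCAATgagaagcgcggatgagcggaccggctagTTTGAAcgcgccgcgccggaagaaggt
Kif23: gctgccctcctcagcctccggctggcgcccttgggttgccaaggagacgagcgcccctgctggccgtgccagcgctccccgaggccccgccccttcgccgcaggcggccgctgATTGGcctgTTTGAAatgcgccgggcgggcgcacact
Kif15: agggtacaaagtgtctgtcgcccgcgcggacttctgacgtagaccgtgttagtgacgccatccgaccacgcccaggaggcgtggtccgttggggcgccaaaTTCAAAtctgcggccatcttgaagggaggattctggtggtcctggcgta
Kif5c: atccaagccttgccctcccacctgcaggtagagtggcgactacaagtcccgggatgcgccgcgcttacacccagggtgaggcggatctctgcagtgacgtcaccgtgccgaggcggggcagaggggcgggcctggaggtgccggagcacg
The windows lie at Kif11 chr19:37376262-37376411 (plus strand), Kif22 chr7:127042391-127042540 (minus strand), Kif18b chr11:102925095-102925244 (minus strand), Kif23 chr9:61946770-61946919 (minus strand), Kif15 chr9:122950961-122951110 (plus strand) and Kif5c chr2:49619166-49619315 (plus strand). Read along the strand of the gene, TTTGAA began 2 and 3 bases after the start in Kif23 and Kif18b. On the opposite strand its letters began 19 bases before the start in Kif11 and Kif15 and 17 before it in Kif22. In Kif14 and Kif2c the RefSeq start lies 1505 and 3867 bases inside the annotated gene, and the letters began 228 and 103 bases before it, so these 2 windows may not show the main promoter. A match of letters is a description of the sequence and was not tested as a binding site.

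All 11 mitotic kinesins were called higher in cycling than in neuronal cells, in both libraries. Summed, they stood at 752 CPM in E18 cycling cells (698 to 808) and 7.29 in E18 neuronal cells (5.97 to 8.82), and at 1426 (1399 to 1454) and 36.1 (33.4 to 39.1) at P2. Of all genes measured, 17.6% were called higher in this comparison at E18 and 11.6% at P2. The median log2 ratio of the 11 was 6.76 at E18 and 5.45 at P2, against -0.0035 and -0.17 over all genes measured.

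**Figure D1:**
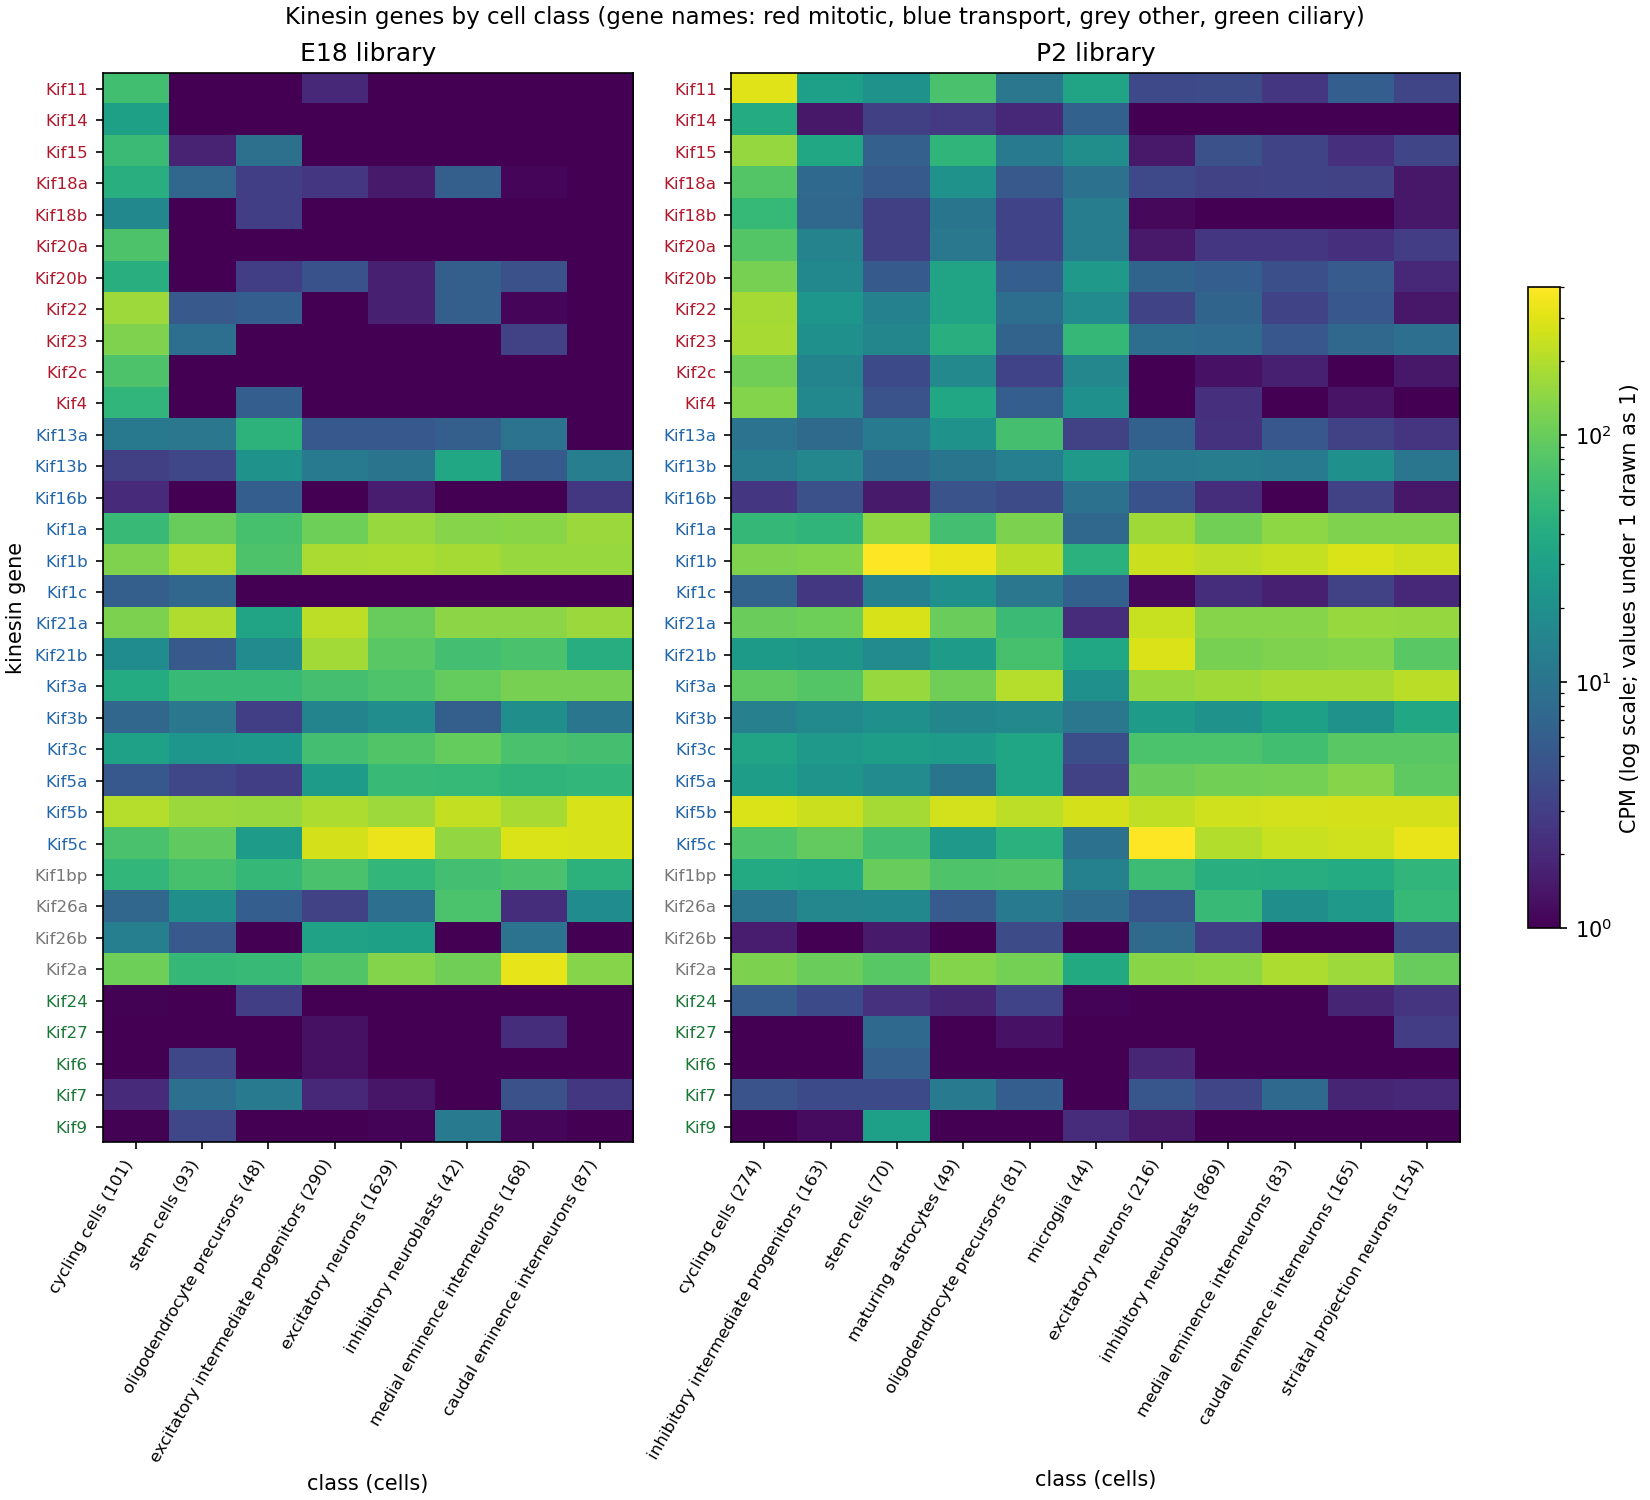
CPM of every kinesin gene with 50 or more UMIs in at least 1 library (rows) in each class of 30 or more cells (columns, cells in brackets), on a log colour scale with values under 1 drawn as 1. The mitotic block at the top is bright in the cycling column of both libraries, while the transport block below is filled in most columns.

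Kif11 encodes the plus-end motor that pushes the spindle poles apart. It had 63 UMIs in the 101 E18 cycling cells, 64.9 CPM (49.9 to 83.0), and 2 UMIs in the 1926 neuronal cells, 0.138 CPM (0.0167 to 0.497). At P2 it stood at 298 CPM (286 to 311) in cycling and 4.09 (3.20 to 5.15) in neuronal cells, a log2 ratio of 6.19 (5.85 to 6.55). A UMI of Kif11 was found in 90.9% of P2 cycling cells and 4.04% of P2 neuronal cells, and with each cell thinned to 2000 UMIs in 39.7% and 0.828%. At E18 the shares were 37.6% and 0.104%. The median P2 neuronal cell held 10295 UMIs against 26958 in cycling cells. Free RNA in droplets was not measured here. Among the P2 neuronal classes the summed mitotic kinesins ran from 27.7 CPM in striatal projection neurons to 40.4 CPM in inhibitory neuroblasts. What the neuronal values stem from was not tested. Those of Kif11 and of the other mitotic kinesins are therefore read neither as expression in post-mitotic neurons nor as its absence, and are not compared between the libraries.

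The kinesins of chromosomes and the anaphase spindle followed the same order of classes. Kif22, which binds chromosome arms, stood at 165 CPM in E18 and 179 in P2 cycling cells, against 1.65 and 5.34 in neuronal cells. Kif4, the chromokinesin that acts with Prc1 on the midzone, stood at 51.5 and 131 CPM against 0.275 and 1.71. Kif23, the motor of the centralspindlin complex that directs cytokinesis, stood at 127 and 182 CPM against 0.344 and 8.07. Kif20a, which carries the chromosomal passenger complex to the midzone, stood at 75.2 and 79.7 CPM against 0.0688 and 2.44, where the E18 neuronal value is 1 UMI. Its log2 ratio at E18 was 10.1 with an interval of 7.57 to 15.4. Kif20b, a midbody kinesin, stood at 44.3 and 117 CPM against 1.86 and 5.51, and Kif14, which acts in cytokinesis, at 29.9 and 39.7 CPM against 0.0688 and 0.341.

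Those that trim or brace spindle microtubules showed it too. Kif2c, a depolymerase at kinetochores, stood at 75.2 and 110 CPM in cycling cells against 0.826 and 1.14 in neuronal cells. Kif18a, which restrains chromosome oscillation, stood at 43.3 and 80.9 CPM against 1.51 and 3.13. Kif15, a spindle motor that can stand in for Kif11, stood at 59.7 and 154 CPM against 0.551 and 3.52. Kif18b, which shortens astral microtubules, had 16 UMIs in E18 cycling cells and 0 of 14531120 UMIs in neuronal cells, so it was at least 79.8-fold higher, taking 3 UMIs over the neuronal classes as the limit that a count of 0 allows and the 16 UMIs without their counting error. With that error, the lower limit of its log2 ratio was 5.85. At P2 it stood at 54.8 against 0.852 CPM.

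**Figure D2:**
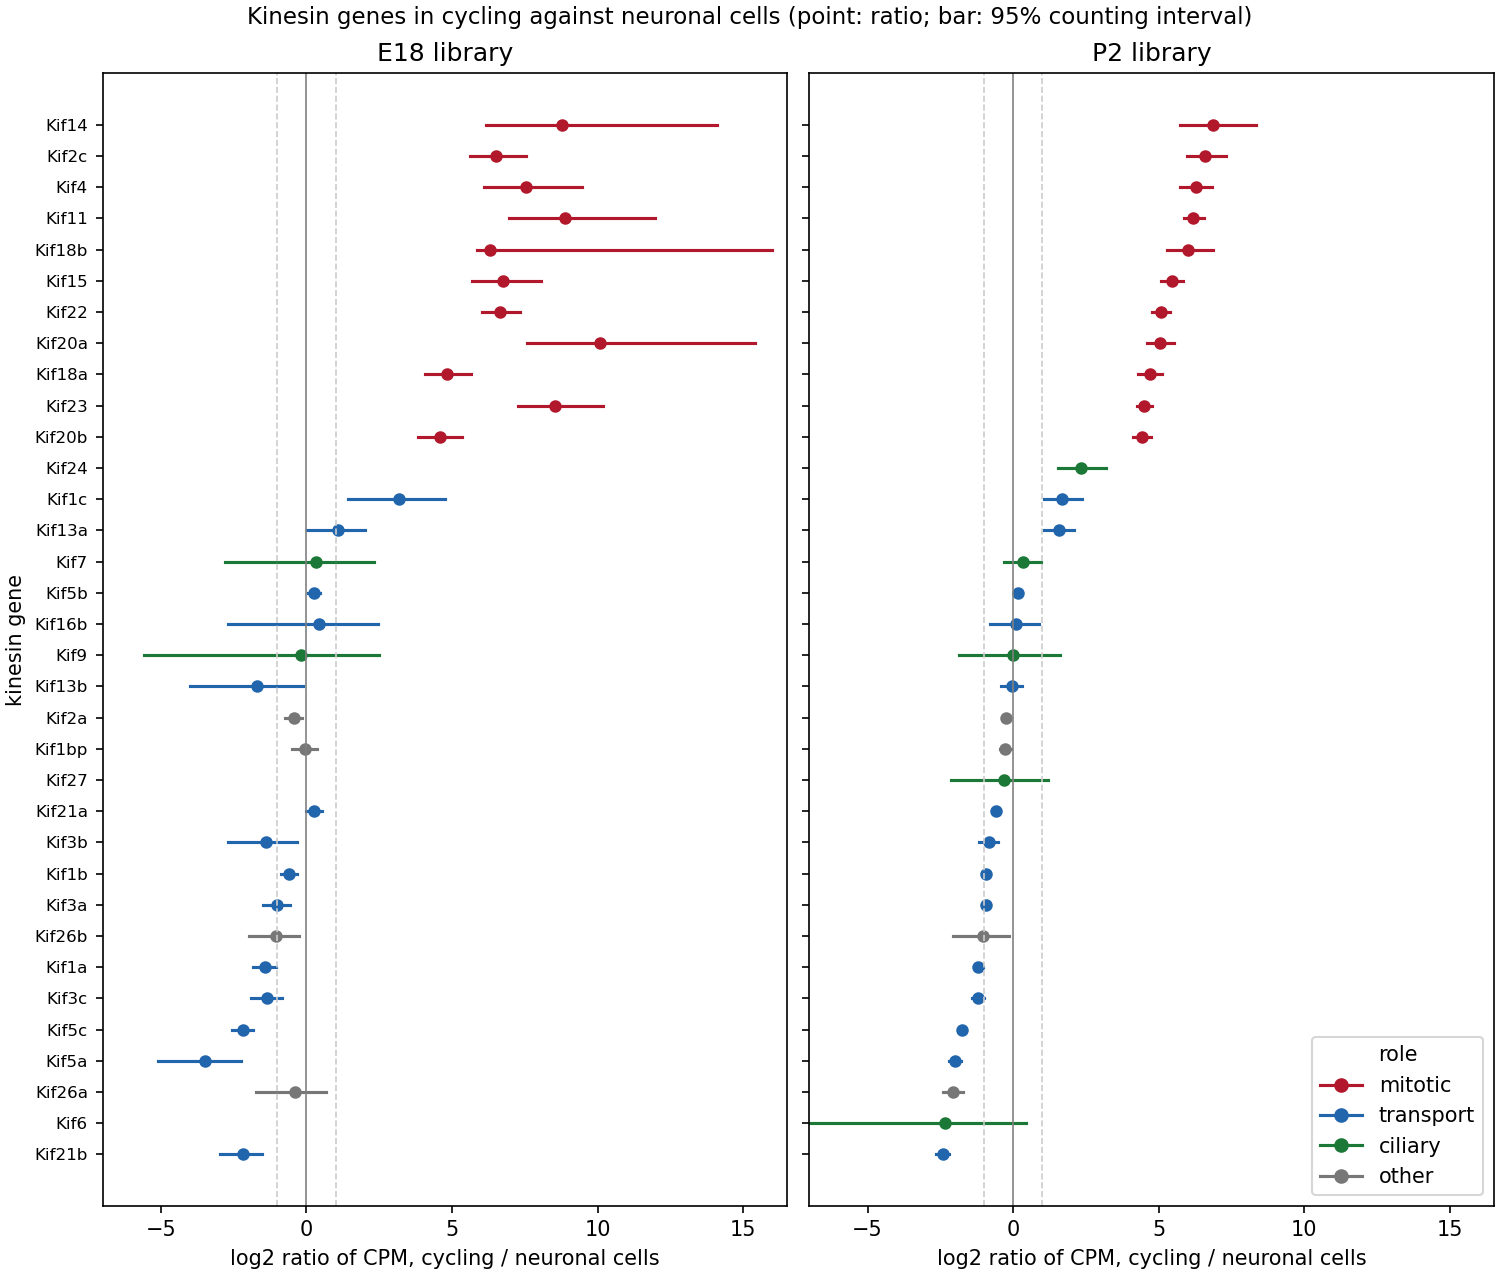
Log2 ratio of CPM in cycling over neuronal cells for each kinesin gene with 10 or more UMIs over both (points), with 95% counting intervals (bars) and dashed lines at -1 and 1. The 11 mitotic genes lie above 4 in both libraries, and Kif5a, Kif5c and Kif21b lie below -1 in both. The E18 interval of Kif18b has no upper bound and is drawn to 16.

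The partners of the mitotic kinesins, from a fixed list of 20 genes that the naming rule does not match, were placed the same way. In each library 19 of 20 were called higher in cycling cells and 0 lower, beside the 17.6% (E18) and 11.6% (P2) of all genes called higher. Birc5, Tpx2 and Nusap1 of this list are also among the markers that named the cycling class, so their place was set by the naming. Prc1, which bundles the midzone, stood at 314 and 467 CPM in cycling cells against 1.17 and 8.81 in neuronal cells, and Aurkb, the kinase of the passenger complex, at 170 and 211 against 0.206 and 2.33. Of the motors and subunits whose symbols the rule does not match, Cenpe, the kinetochore kinesin, stood at 142 and 368 CPM against 0.619 and 5.46, and Kifc1, the minus-end motor of the spindle, at 85.5 and 108 against 0.688 and 3.64. Of that list 10 genes were measured at E18 and 11 at P2, and in each library 3 were called higher in cycling cells (Cenpe, Kifc1 and its close relative Kifc5b, which may share reads) and 5 lower. Those called lower in both libraries were Kifap3, Kifc2 and Kifc3. The share of all genes called lower was 16.7% at E18 and 16.3% at P2.

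Cycling cells were divided by their own UMIs of fixed S-phase and G2/M lists that hold no kinesin. At E18, 53 cells leaned to G2/M and 48 to S, and at P2 213 and 60, with 1 tied. The difference between the 2 list counts was 20% of their sum or less in 16 E18 and 52 P2 cells, so these are ranges along the cycle and not types. At E18, 9 of the 11 mitotic kinesins were called higher in G2/M-leaning cells, where 4.27% of all genes were called higher and 3.63% lower. At P2, 3 of 11 were, Kif2c, Kif20b and Kif14, where 3.04% of all genes were called higher and 3.86% lower. The median log2 ratio over the 11 was 1.91 at E18 and 0.77 at P2, and 0 of the 11 were called lower in either library.

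Kif20a had the largest phase difference of the 11 at E18, at 123 CPM in G2/M-leaning and 14.1 CPM in S-leaning cells, a log2 ratio of 3.13 (1.93 to 4.62). At P2 it stood at 88.0 and 48.8 CPM, a log2 ratio of 0.85 (0.50 to 1.22), under the limit of 1. Kif22 stood at 259 and 44.6 CPM at E18 and at 197 and 116 at P2. Kif23 stood at 198 and 35.2 CPM at E18 and at 195 and 133 at P2. Kif15 was called between the phases in neither library. At E18 it stood at 58.7 and 61.0 CPM, from 32 and 26 UMIs (log2 ratio -0.055, interval -0.85 to 0.75). At P2 it stood at 158 and 139 CPM (0.19, -0.02 to 0.41). Without the cells near the phase limit, an alternative added after seeing the data, 7 kinesins in all were called higher in G2/M-leaning P2 cells in place of 3. The P2 values also rest on where the cycling class ends. The 163 P2 inhibitory intermediate progenitors are outside it, though genes of DNA replication (Mcm3, Mcm2) lead them and their summed cycling markers reached 3011 CPM, against 2759 CPM in the E18 S-leaning cells. Of these progenitors 124 leaned to S and 36 to G2/M. With them counted as cycling, also added after seeing the data, 11 kinesins in all were called higher in G2/M-leaning P2 cells, and the log2 ratio of Kif22 was 1.81 in place of 0.76 and that of Kif11 1.68 in place of 0.52. The share of all genes called is given for the main setting only, so the counts under the added settings are not read as a result about kinesins.

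**Figure D3:**
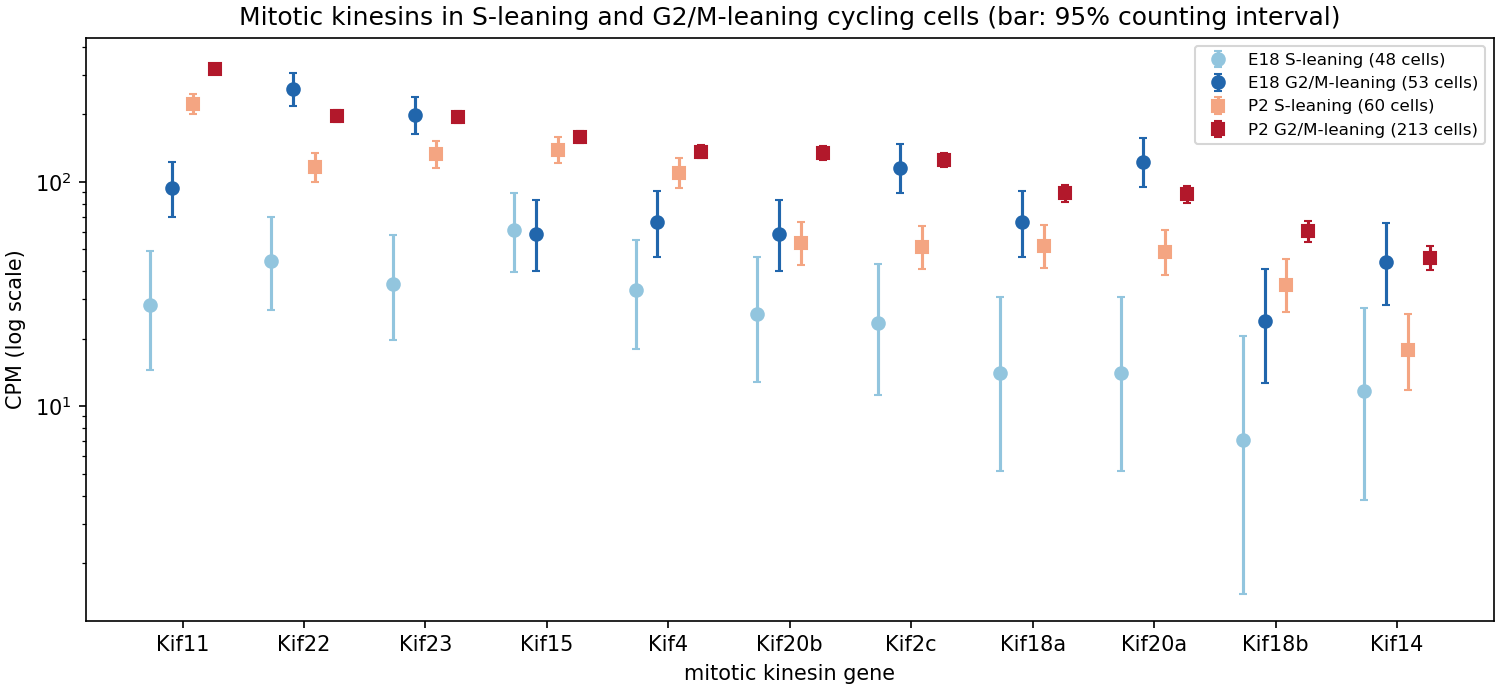
CPM on a log axis of the 11 mitotic kinesins in S-leaning and G2/M-leaning cycling cells of the E18 library (circles) and the P2 library (squares), with 95% counting intervals. G2/M-leaning points lie above S-leaning ones for every gene except Kif15 at E18, and the gap is wider at E18 than at P2 for Kif20a, Kif22 and Kif23.

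Between the libraries, 5 of the 11 mitotic kinesins were called higher in P2 than in E18 cycling cells and 0 lower. Over all genes measured, 11.7% were called higher and 8.86% lower, and the median log2 ratio of the 11 was 0.90 against 0.11 over all genes. Kif11 had the largest log2 ratio of the 11, at 298 against 64.9 CPM, a log2 ratio of 2.20 (1.84 to 2.59). Kif18b (log2 ratio 1.73), Kif20b (1.40), Kif15 (1.37) and Kif4 (1.35) were the other four. Kif22 (0.12, -0.12 to 0.37) and Kif20a (0.08, -0.27 to 0.46) differed by less than 1 on the log2 scale. The share of G2/M-leaning cells was 52.5% at E18 (42.3 to 62.5, Clopper-Pearson) and 77.7% at P2 (72.3 to 82.5), and the P2 cycling cells held more UMIs each. With the P2 inhibitory intermediate progenitors counted as cycling, the P2 share was 56.98% (52.2 to 61.7). Then 5 kinesins in all were called higher at P2 in place of 8, with Kif11 at a log2 ratio of 1.72 and Kif18b at 1.27, while Kif15 (0.96), Kif20b (0.95) and Kif4 (0.88) were under the limit of 1. With the phases compared separately, which was added after seeing the data, the log2 ratio of Kif11 was 1.77 among G2/M-leaning and 2.99 among S-leaning cells. That of Kif22 was -0.40 and 1.38, and that of Kif20a -0.48 and 1.79, so for these 2 genes the sign differed by phase. Among S-leaning cells 13 kinesins in all were called higher at P2, and among G2/M-leaning cells 7, against 8 in the whole class. Here too the share of all genes called is given for the main setting only. The part of depth, lineage and library in these differences cannot be told apart from age. The 3 P2 clusters of the class were not alike: summed mitotic kinesins stood at 1241, 1878 and 661 CPM.

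Of the transport kinesins, 3 of 14 measured were called higher in P2 than in E18 cycling cells and 0 lower. Over all genes, 11.7% were called higher and 8.86% lower. With so few genes and the low E18 counts below, the 3 are given as single values and not as a result about the set. Kif5a, a neuronal heavy chain, stood at 28.0 against 5.15 CPM (5 UMIs at E18). Kif3a, a subunit of the heterotrimeric kinesin-2 that serves cilia and axons, stood at 91.1 against 40.2 CPM, and Kif13b at 12.8 against 3.09 CPM (3 UMIs at E18). Kif26b, an atypical kinesin without ATPase activity, was called lower, at 1.63 against 13.4 CPM.

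Within P2 cycling cells, 119 held an EYFP UMI and 155 did not, a group that can include labelled cells without a captured molecule. None of the 11 mitotic and 14 transport kinesins measured was called, with 1.74% of all genes called higher and 1.31% lower. Kif11 stood at 309 CPM in EYFP-positive and 289 CPM in EYFP-negative cells (log2 ratio 0.10, -0.03 to 0.22). Kif26a, at 14.3 against 7.003 CPM, and Kif26b, at 3.15 against 0.259 CPM (11 UMIs and 1 UMI), were called higher, and Kif24, at 3.15 against 8.04 CPM, lower.

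The transport kinesins, summed, stood at 1284 CPM in E18 neuronal and 707 CPM in E18 cycling cells, and at 1582 and 871 CPM at P2. At E18, 8 of 14 measured were called lower in cycling cells and 2 higher, and at P2 5 and 2. Over all genes, 16.7% were called lower and 17.6% higher at E18, and 16.3% and 11.6% at P2. The 2 called higher were Kif13a and Kif1c in both libraries. Beside the shares of all genes, their number is not read as a result about transport kinesins. At E18 these calls rest on 11 UMIs of Kif13a (log2 ratio 1.08, 0.017 to 1.995) and 6 of Kif1c in cycling cells. The 5 called lower at P2, Kif1a, Kif3c, Kif5a, Kif5c and Kif21b, were also called lower at E18, together with Kif3a, Kif3b and Kif13b.

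The Kif5 genes encode the 3 heavy chains of conventional kinesin, which hauls cargo down axons. Kif5b is the widely expressed one, and Kif5a and Kif5c are known from neurons. Kif5b stood at 171 CPM in E18 neuronal, 205 in cycling and 160 in glial cells, and at 258, 288 and 219 CPM at P2. No comparison of these 3 called it. It also stood at 272 CPM in P2 microglia (239 to 307), cells of another lineage. Kif5c stood at 327 CPM in E18 neuronal, 72.1 in cycling and 68.7 in glial cells, and at 255, 76.3 and 44.5 CPM at P2. Kif5a stood at 57.0, 5.15 and 3.38 CPM at E18 and at 112, 28.0 and 20.5 CPM at P2. So both neuronal heavy chains were called higher in neuronal than in cycling and than in glial cells of each library.

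Read as shares of the family, Kif5b gave 72.6% of Kif5 UMIs in E18 cycling cells (66.9 to 77.8, Clopper-Pearson) and 73.4% at P2 (71.8 to 75.0). In neuronal cells it gave 30.8% (29.8 to 31.9) and 41.2% (40.3 to 42.2). In glial cells it gave 68.9% and 77.1%. Kif5c gave 58.9% of neuronal Kif5 UMIs at E18 and 40.9% at P2, and Kif5a 10.3% and 17.9%. The neuronal classes of the libraries differ, since 1629 of the 1926 E18 neuronal cells were excitatory neurons and 869 of the 1487 at P2 inhibitory neuroblasts. Of these 869, the 247 cells of cluster 0 had no gene of the neuroblast list and 1 of the caudal eminence list (Adarb2) among their 10 leading genes. Within excitatory neurons Kif5c gave 59.8% at E18 and 55.1% at P2. Cycling cells and glia of both ages thus shared a Kif5b-led make-up, and excitatory neurons of both ages a Kif5c-led one. A Kif5b lead was not particular to cycling cells and glia. Inhibitory neuroblasts had 45.3% Kif5b and 35.0% Kif5c at P2, and 52.8% and 34.7% at E18 (72 UMIs). Kif5c led in E18 medial eminence interneurons (55.2%) and P2 striatal neurons (47.4%). In the other interneuron classes the intervals of the Kif5b and Kif5c shares overlapped.

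**Figure D4:**
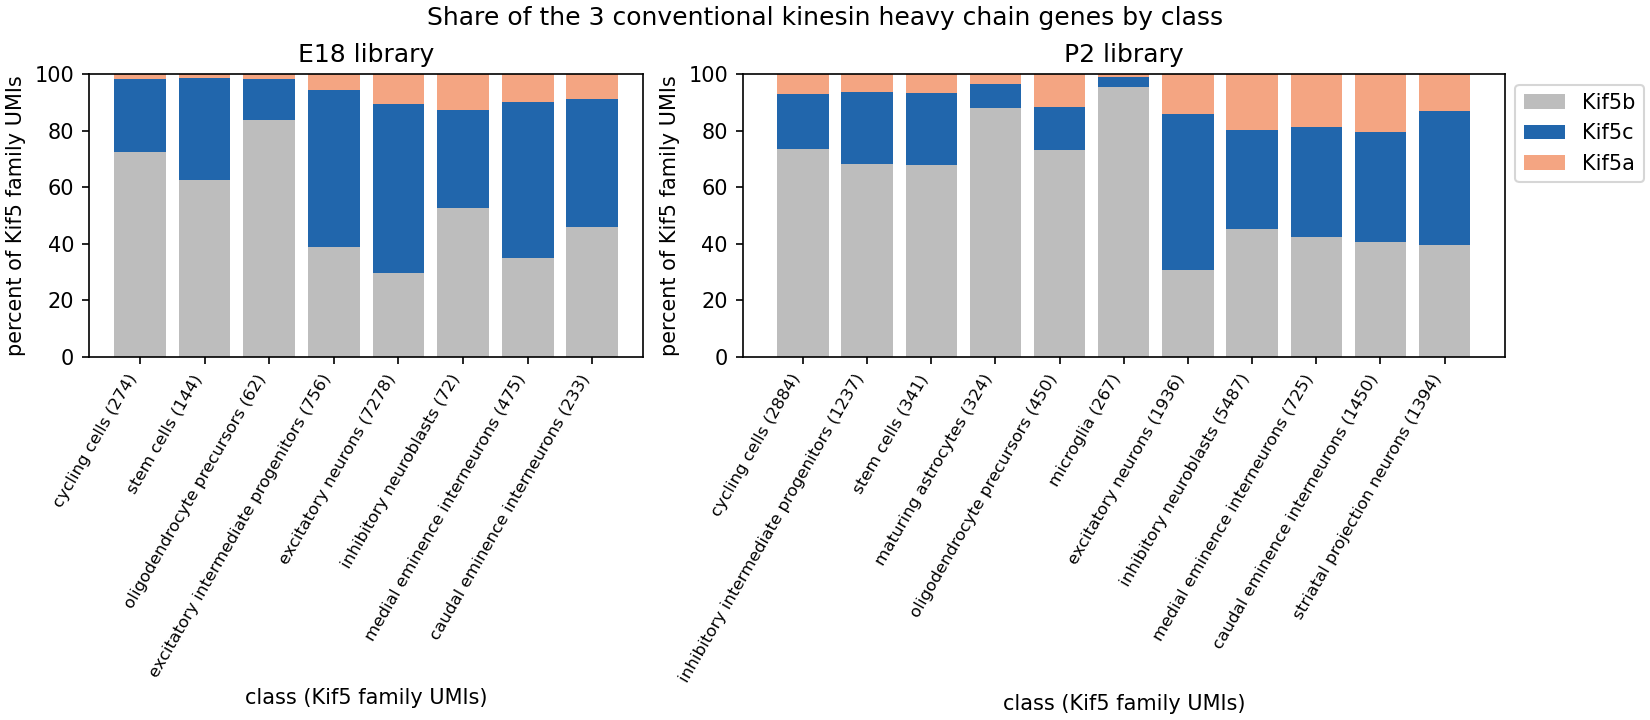
Share of Kif5b, Kif5c and Kif5a in the UMIs of the 3 genes for each class of the E18 library (left) and the P2 library (right), with the UMIs of the family in brackets. Kif5b takes 62.5% or more of each bar in cycling and glial classes and microglia, 68.2% in the P2 inhibitory intermediate progenitors, and 29.8% to 52.8% in neuronal classes.

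Neuronal and glial cells were compared within each library. At E18, 7 of 25 measured kinesins were called higher in neuronal cells and 7 lower, with 14.3% and 17.3% of all genes. At P2, 5 of 36 were called higher and 18 lower, with 8.94% and 26.7% of all genes. Kif3c, Kif5a, Kif5c and Kif21b were the transport kinesins called higher in neuronal cells in both libraries, and Kif3b at E18 as well. Kif3c, the neuron-enriched partner of Kif3a, stood at 78.5 and 75.7 CPM in neuronal cells against 23.7 and 27.7 in glia. Kif2a, a depolymerase that limits axon branching, was called higher in neuronal cells at E18, at 144 against 55.2 CPM, and stood at 145 against 113 CPM at P2 (log2 ratio 0.35).

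The 18 called lower in neuronal cells at P2 were the 11 mitotic genes, 5 ciliary genes, Kif13a and Kif1c. The mitotic sum was 163 CPM in P2 glial and 25.9 CPM in E18 glial cells. Within the P2 glia it was 331 CPM in the 49 maturing astrocytes, where Mki67, the proliferation antigen, had 175 UMIs (162 CPM) and the summed cycling markers reached 2277 CPM. In the 8 ependymal cells, fewer than the 30 set for a class level, it was 303 CPM (130 UMIs) with Mki67 at 6.99 CPM (3 UMIs). It was 85.5 CPM in stem cells and 67.6 CPM in oligodendrocyte precursors, where Mki67 stood at 20.2 and 26.1 CPM. In P2 microglia, in no group above, the sum was 228 CPM with Mki67 at 177 CPM, and Kif23 stood at 54.3 CPM. P2 inhibitory intermediate progenitors, a class led by Mcm3 and Mcm2 of DNA replication, had a mitotic sum of 186 CPM with Mki67 at 136 CPM. The mitotic sum was thus above the neuronal 36.1 CPM in each of these P2 classes. The part of dividing cells inside these classes in it was not tested.

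Kif13a, which moves recycling endosomes, was highest in oligodendrocyte precursors among the named classes of both libraries. It stood at 48.4 CPM in E18 oligodendrocyte precursors (27.7 to 78.6; 16 UMIs in 48 cells) and 68.9 CPM in those of P2 (56.2 to 83.6; 103 UMIs in 81 cells). In neuronal cells it stood at 5.37 and 3.30 CPM, in cycling cells at 11.3 and 9.79 CPM, in stem cells at 10.8 and 11.7 CPM and in P2 microglia at 3.20 CPM. A UMI of Kif13a was found in 64.2% of P2 oligodendrocyte precursors (median 15630 UMIs), 3.50% of neuronal cells (median 10295) and 4.55% of microglia (median 20117), and after thinning to 2000 UMIs in 14.8% of the precursors and 0.345% of the neuronal cells. The P2 neuronal level was close to that of microglia, cells of another lineage, where it rests on 3 UMIs. Whether the neuronal value is background was not tested. Precursors of the libraries were not set against each other, since the E18 class had fewer than 50 cells. The P2 cluster also held Mbp and Bcas1 of maturing oligodendrocytes among its leading genes. Kif1c, a motor of Golgi and vesicle traffic, stood at 14.9 CPM in P2 glial and 2.10 CPM in neuronal cells, and at 4.51 (4 UMIs) and 0.688 CPM at E18.

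Kif1b, which carries mitochondria and synaptic vesicle precursors, and Kif21a, a cortical microtubule regulator, were called in neither direction between neurons and glia, and both varied within the glia. Kif1b stood at 408 CPM in P2 stem cells, 339 in maturing astrocytes, 208 in oligodendrocyte precursors and 45.8 in microglia, against 239 in neuronal cells. At E18 it stood at 196 CPM in stem cells and 75.7 in oligodendrocyte precursors. Kif21a stood at 278 CPM in P2 and 194 in E18 stem cells, and at 58.9 and 33.3 CPM in oligodendrocyte precursors. Both genes were thus higher in stem cells than in oligodendrocyte precursors of the same library. Kif1a, the motor of synaptic vesicle precursors, stood at 156 and 125 CPM in neuronal, 89.0 and 109 in glial and 57.7 and 54.4 in cycling cells.

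Kif21b, which pauses microtubule growth in neurons, was low in stem and cycling cells and higher in neuronal and excitatory progenitor classes, but was not confined to these. At E18 it stood at 175 CPM in excitatory intermediate progenitors, 87.1 in excitatory neurons, 18.5 in cycling cells and 5.38 in stem cells (3 UMIs). At P2 it stood at 291 CPM in excitatory neurons, 116 in inhibitory neuroblasts, 85.7 in striatal neurons, 26.4 in cycling cells and 17.9 in stem cells. In P2 oligodendrocyte precursors it had 105 of 1495143 UMIs and in P2 microglia 34 of 938578, both above its levels in P2 stem and cycling cells. Its E18 level was 219 CPM in progenitor cluster 4, with Rnd2 and Neurod1 among its leading genes, and 103 CPM in cluster 11, led by Eomes and Neurog2. In the 8 excitatory neuron clusters it ran from 65.7 to 144 CPM, a range that holds the level of cluster 11. Neurod6, of the excitatory neuron list, stood at 959 CPM in the progenitor class, so the class is not free of neuronal markers. The P2 excitatory neurons also had Neurod1 and Sstr2 of the intermediate progenitor list among their leading genes.

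**Figure D5:**
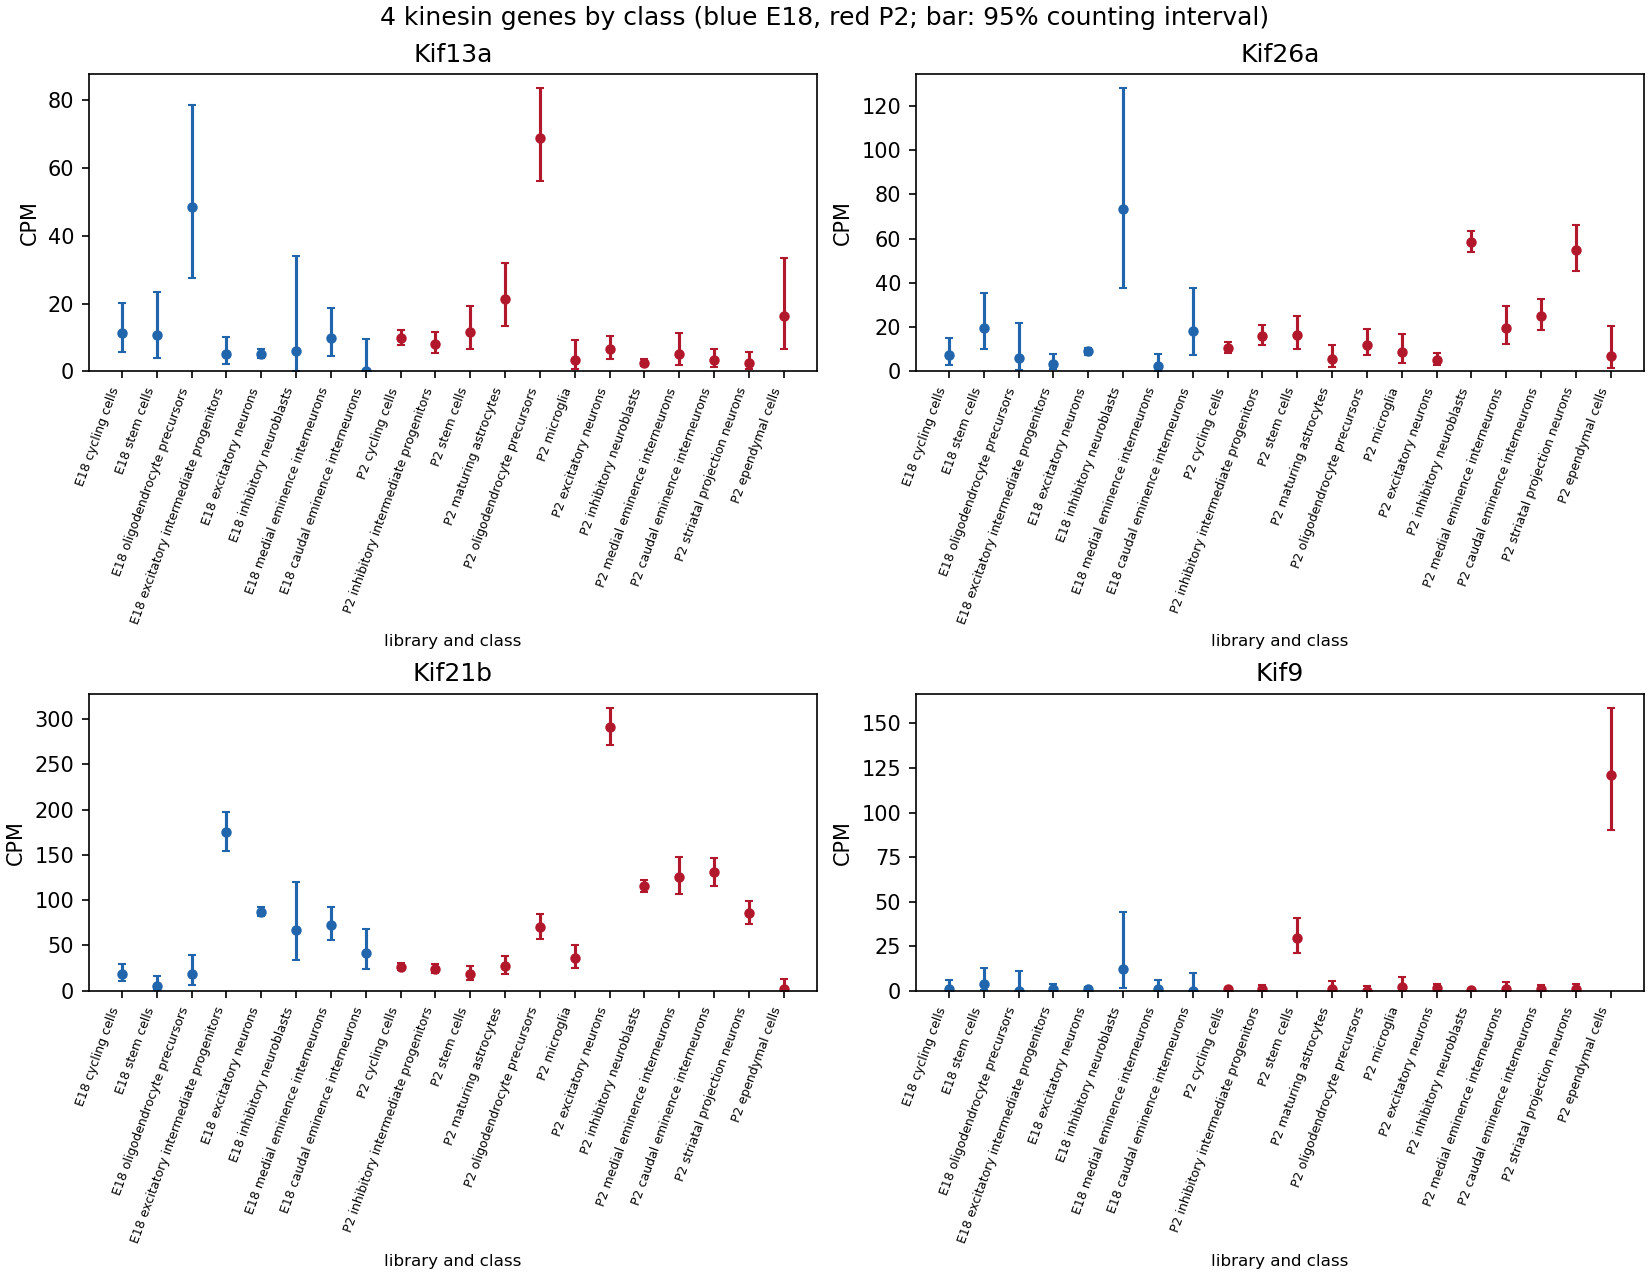
CPM of Kif13a, Kif26a, Kif21b and Kif9 in every class of the E18 library (blue) and the P2 library (red), with 95% counting intervals. Kif13a peaks in oligodendrocyte precursors of both libraries, Kif26a in inhibitory neuroblasts of both, Kif21b in E18 excitatory intermediate progenitors and P2 excitatory neurons, and Kif9 in the 8 P2 ependymal cells. Within the E18 progenitor class Kif21b was higher in cluster 4 than in the Eomes-led cluster 11.

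Between E18 excitatory neurons and their intermediate progenitors, 4 of 23 measured kinesins were called, with 11.3% of all genes called higher and 10.6% lower in neurons. Kif5a was higher in neurons, at 57.6 against 26.7 CPM, and it stood at 40.9 CPM in progenitor cluster 4 and 3.43 CPM in cluster 11. Kif26a was also higher, at 8.95 against 3.25 CPM (5 UMIs in progenitors). Kif21a, at 98.8 against 219 CPM, and Kif21b, at 87.1 against 175 CPM, were lower, by log2 ratios of -1.15 and -1.01. Under TMM scaling these were -0.99 and -0.84, and neither was called. The level of Kif21b in the Eomes-led progenitor cluster 11 lay within the range of the excitatory neuron clusters, as given above. Of 31 kinesins measured between P2 striatal neurons and inhibitory neuroblasts, Kif27 was called higher, at 2.97 against 0.728 CPM (6 and 7 UMIs), and Kif22, at 1.49 against 6.97 CPM, and Kif20b, at 1.98 against 6.03 CPM, lower. Over all genes 9.05% were called higher and 10% lower. Kif22 and Kif20b are mitotic kinesins with few UMIs in striatal neurons, and their neuronal values are not read as expression. Kif5c stood at 327 CPM in striatal neurons and 200 CPM in neuroblasts, a log2 ratio of 0.71 (0.58 to 0.84). None of the 14 transport kinesins measured between these P2 classes was called. Without neuroblast cluster 0, which was added after seeing the data, 0 kinesins were called higher and 1 lower, and the log2 ratio of Kif5c was 0.96.

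The atypical Kif26a and Kif26b, which bind microtubules without ATPase activity, differed between neuronal types. Kif26a stood at 73.2 CPM in E18 inhibitory neuroblasts (37.8 to 128; 12 UMIs) and 58.6 CPM in those of P2 (53.8 to 63.6), at 55.0 CPM in P2 striatal neurons and at 4.93 CPM in P2 excitatory neurons. Across the 8 clusters of E18 excitatory neurons it stood at 31.9 CPM in cluster 5, with Fezf2 and Ldb2 among its leading genes, and 39.9 CPM in cluster 8, with Hs3st4 and Tle4, and between 0 and 0.756 CPM in the other six. Kif26b stood at 94.98 CPM in cluster 9, with Rorb in the lead, at 68.0 CPM in cluster 7, and at 68.6 CPM in the Eomes-led progenitor cluster 11, but at 1.44 CPM in cluster 2 and 3.63 CPM in cluster 8. Clusters 8 and 9 each had 1 gene of the striatal list and none of the excitatory list among their 10 leading genes. Kif2a was highest in medial eminence interneurons of both libraries, at 318 CPM in the E18 and 194 CPM in the P2 library.

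The ciliary kinesins were sparse. At E18 the 6 genes had 84 UMIs in all and none reached 50. At P2 they had 544 UMIs, and 5 reached 50. The 8 P2 ependymal cells are under the 30 cells set as the least for a class level and are given as a description. In them Kif9 stood at 121 CPM (90.5 to 159), Kif6 at 60.6, Kif27 at 53.6, Kif19a, which sets cilium length, at 28.0 and Kif24 at 25.6 CPM. Kif9 was also found at 29.5 CPM in P2 stem cells (38 UMIs), where Foxj1, the master regulator of motile cilia, had 114 UMIs and the summed ependymal markers reached 340 CPM. In P2 neuronal cells Kif9 stood at 0.682 CPM, and in oligodendrocyte precursors it had 0 of 1495143 UMIs, which allows up to 2.01 CPM. Kif19a stood at 10.03 CPM in P2 oligodendrocyte precursors and had 2 UMIs in all neuronal cells. Kif24, which acts on centrioles and restrains cilium assembly, was the ciliary kinesin called higher in P2 cycling cells, at 5.71 against 1.14 CPM. Kif7, the ciliary regulator of Hedgehog signalling, stood at 10.1 CPM in E18 glial and 1.65 CPM in neuronal cells, and at 6.29 and 3.64 CPM at P2.

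Lists of cargo adaptors, of dynein genes and of motor subunits outside the rule were counted beside the kinesins. Dynein is the motor that walks the other way, and its list also holds dynactin subunits, regulators and adaptors. Of 19 cargo adaptors, 11 were called lower in cycling than in neuronal cells at E18 and 5 at P2, and 0 higher. Over all genes 17.6% were higher and 16.7% lower in this comparison at E18, with 11.6% and 16.3% at P2. Klc1, a light chain of conventional kinesin, stood at 89.6 and 103 CPM in cycling and 229 and 184 CPM in neuronal cells, and was called lower in cycling cells at E18 (log2 ratio -1.35) but not at P2 (-0.84). Kifap3, the adaptor of kinesin-2, stood at 90.6 and 80.4 CPM in cycling and 247 and 210 CPM in neuronal cells, and was called lower in both. Of the 23 genes on the dynein list, 1 was called higher and 4 lower at E18, and 1 and 1 at P2, against the same shares of all genes.

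The remaining members are given by their levels. The kinesin-2 subunits Kif3a and Kif3b, which serve cilia as well as axons, stood at 80.7 and 18.7 CPM in E18 and 175 and 24.6 CPM in P2 neuronal cells. In the 8 P2 ependymal cells they stood at 291 and 76.9 CPM. Kif13b, a relative of Kif13a, stood at 10.1 and 13.2 CPM in neuronal and 10.1 and 10.5 CPM in glial cells. Kif16b, an endosome motor, stood at 1.51 and 2.44 CPM in neuronal and 2.25 and 4.42 CPM in glial cells, and Kif17, a dendritic motor, had 6 UMIs at E18 and 16 at P2 in all. Kif16bos had 3 UMIs or fewer in the pooled neuronal classes of either library. Kif1bp stood at 54.5 and 46.5 CPM in neuronal, 52.5 and 38.8 CPM in cycling and 64.2 and 86.4 CPM in glial cells. None of Kif13b, Kif16b, Kif17 and Kif1bp was called between neuronal and glial cells in either library.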

How the data were processed

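Single-cell RNA was counted in 2 mouse libraries. The authors deposited, per library, raw counts of UMIs for each gene in each barcode. They were made with Cell Ranger 4.0.0 per the file headers, on mm10 per the submitters' processing notes. Barcode and gene lists are the other deposited files and, per the file headers, hold no measurement. The 2922 E18 and 2778 P2 barcodes hold 19986915 and 42572208 UMIs.

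Cells with at least 500 genes and at most 10% mitochondrial UMIs were kept, which removed 291 and 336. Scrublet, as run by scanpy 1.11.5, marked 42 and 5 doublets by its own limit. The latter, 0.205% of P2 cells, is too few to be relied on, so the 5% of cells with the highest scores were dropped instead, 156 and 144 with a median of 8015.5 and 33540 UMIs. Doublets can remain. Cells were clustered on 2000 variable genes without kinesins, in 30 components with 15 neighbours (Leiden, resolution 1, leidenalg 0.10.2), into 17 and 21 clusters. A cluster was named from 21 marker lists where at least 4 markers were detected in 20% or more of its cells and their mean scaled score reached 0.45. 3 P2 clusters stayed unnamed, and 9 and 10 cells with markers of vascular or immune cells were set aside. The scoring was set after the clusters were seen, and rebuilt names can differ from the authors' own.

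UMIs were summed by class and scaled to 1000000 UMIs. Intervals are 95% exact Poisson for a level, Clopper-Pearson for a share and exact conditional for a ratio (scipy 1.17.1). A fold against 0 UMIs uses 3 UMIs over the group. Ratios were tested on simulated data with known folds. TMM factors came from edgeR 4.0.16. No replicate exists, so nothing was tested between samples. Precursors of oligodendrocytes were not compared between ages, since 48 E18 cells are fewer than the 50 required.

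The members, lists and comparisons were chosen with earlier results of these data known. Every member with 50 or more UMIs in a library is named with its level, and the others by counts. 7 alternatives were tried: 5% mitochondrial UMIs, doublets kept, resolution 0.5, kinesins in the clustering, TMM scaling, at least 50 UMIs per ratio, and no cell filter. Those on phase were added after the data were seen. Promoter windows are RefSeq's on GRCm38.p6.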

Additional observations from a re-analysis of the deposited data

How the results depend on the processing

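No paired analysis was possible because each age has 1 library and no result comes from a test. The number of kinesins called higher in cycling than in neuronal cells was 13 at E18 and lay between 10 and 14 under the alternatives, and at P2 it was 14, and 14 or 15 under them. Of the counts of called kinesins under an alternative, 115 were within 1.5 times the main count and 41 were not. Of the values of single genes, 1546 moved by less than their counting interval, 260 moved by more and 1 changed sign: Kif26b in P2 cycling against neuronal cells, with a log2 ratio of 0.073 with doublets kept in place of -1.04. The counts that moved follow, with the main count in brackets, and the causes were not tested. Shares of all genes called are given for the main setting only, so a moved count is not read as a result about kinesins.

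Under TMM scaling, 0 (2) kinesins were called lower in E18 excitatory neurons than in their progenitors. TMM shifted log2 ratios by -0.14 for E18 cycling against neuronal, 0.17 and 0.27 for neuronal against glial at E18 and P2, and 0.16 for E18 excitatory neurons against progenitors. With at least 50 UMIs per ratio, which leaves fewer genes measured, the counts were 1 (7) lower in E18 neuronal than glial cells, 7 (11) higher in E18 G2/M-leaning cells, 0 (1) lower in P2 G2/M-leaning cells, 0 (1) lower in P2 than E18 cycling cells, 0 (1) higher in striatal neurons than neuroblasts, and 1 (2) higher and 0 (1) lower in EYFP-positive cells. With 5% mitochondrial UMIs, they were 5 (3) higher in P2 G2/M-leaning cells, 1 (2) higher in excitatory neurons and 2 (1) higher in striatal neurons. With doublets kept, they were 4 (7) lower in E18 neuronal than glial cells, 4 (7) lower in P2 cycling than neuronal cells, 5 (3) higher in P2 G2/M-leaning cells, 1 (2) higher and 1 (2) lower in excitatory neurons and 0 (1) higher in striatal neurons.

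At resolution 0.5, which merges clusters, they were 1 (0) lower in E18 G2/M-leaning cells, 4 (7) lower in P2 cycling than neuronal cells, 11 (18) lower in P2 neuronal than glial cells, 5 (3) higher in P2 G2/M-leaning cells, 2 (1) lower in P2 than E18 cycling cells, 5 (2) higher and 1 (2) lower in excitatory neurons, 8 (2) lower in striatal neurons and 2 (1) lower in EYFP-positive cells. With kinesins in the clustering, 1 (2) were higher and 1 (2) lower in excitatory neurons. Without a cell filter, they were 12 (7) lower in E18 neuronal than glial cells, 2 (1) lower in P2 than E18 cycling cells, 1 (2) lower in excitatory neurons, 5 (2) lower in striatal neurons and 2 (1) lower in EYFP-positive cells. Without cells near the phase limit, 7 (3) were higher and 0 (1) lower in P2 G2/M-leaning cells. Among S-leaning cells alone, 13 (8) were higher and 0 (1) lower at P2 than at E18. With the inhibitory intermediate progenitors counted as P2 cycling cells, 11 (3) were higher in P2 G2/M-leaning cells and 5 (8) higher at P2 than at E18. Without neuroblast cluster 0, 0 (1) were higher and 1 (2) lower in striatal neurons. Depth limits the sparse genes: at E18 none of the 6 ciliary kinesins reached 50 UMIs.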

Other observations

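Kinesin levels in the 3 P2 clusters that stayed without a class name are given as values. Cluster 14, with 66 cells and Olig1, Dll3 and Egfr among its leading genes, had 70.4 CPM of Kif13a, beside 68.9 CPM in the oligodendrocyte precursors. Cluster 18, with 30 cells and Ebf1 and Isl1 in the lead, had 245 CPM of Kif5c and 52.0 CPM of Kif26a. Cluster 19, with 16 cells, a median of 39383.5 UMIs and both interneuron genes (Sst, Npy) and histone genes in the lead, had 130 CPM of Kif5a, and mitotic kinesins summed to 549 CPM (495 to 608). It was not tested whether cluster 19 holds doublets.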
